A study of Homo sapiens with 89 samples.

Results

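The heat shock protein chaperones described here are the 10 genes HSPA1A, HSPA1B, HSPA8, HSPA9, HSPH1, HSP90AA1, HSP90AB1, HSPD1, HSPE1 and DNAJB1, taken by symbol from the 57905 gene models of 2 RNA-seq count tables. All 10 had a row in both tables, and 8 passed the filter on low counts in each, where 17103 genes in IMR-32 and 14923 genes in SHEP were tested. The study asked how MYCN, a transcription factor of the MYC family, works together with the nuclear RNA exosome, and its RNA-seq part compared polyadenylated RNA in 2 human neuroblastoma cell lines. In IMR-32, the shEXOSC10 group had 1 µg/ml doxycycline to induce an shRNA against EXOSC10, a 3'-5' exonuclease of the nuclear exosome, and the Control group had none. The Control libraries are named for ethanol in the counts. In SHEP, the MYCN 3A group had 1 µg/ml doxycycline to induce a MYCN changed at several residues, described by the labels as unable to bind RNA; the wild type MYCN group had 1 µg/ml doxycycline to induce unaltered MYCN; and the no MYCN group had no doxycycline. Each of the 5 groups had 3 libraries. Doxycycline and the induced construct cannot be told apart in any comparison with an untreated group. Both MYCN forms had the same doxycycline dose, but the counts do not show how much of each was made. The form, its amount and the clone therefore cannot be told apart between the MYCN groups. Nothing in the labels gives the number of clones or places the 3 libraries of a group in separate cultures; p-values measure the spread between these libraries, which may be technical.

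Heat shock proteins are chaperones that bind proteins which are unfolded, newly made or only partly assembled. HSP70 proteins bind and release short exposed stretches in an ATP-driven cycle, which J-domain proteins such as DNAJB1 start and exchange factors such as HSPH1 reset, and clients can then pass on to HSP90, which works on kinases, receptors and other signalling proteins. In the mitochondrial matrix, HSPA9 pulls imported proteins across the inner membrane, and HSPD1 forms a folding chamber that HSPE1 closes as its lid. HSF1 is the main activator of the heat-induced members, and MYC proteins bind E-boxes, of which CACGTG is the classic form.

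The 6 IMR-32 libraries held 16394148 to 26193478 counts and the 9 SHEP libraries 11638859 to 15353505. EXOSC10 had 49.0, 46.7 and 46.1 CPM (counts per 1000000, scaled with TMM factors) in shEXOSC10, against 74.6, 64.0 and 67.1 CPM in Control (log2 fold change -0.54, SE 0.08, edgeR adjusted p = 2.27e-08). MYCN also fell there, to 599 ± 5.47 CPM in shEXOSC10 against 1097 ± 15.3 CPM in Control (SD, n = 3 each). EXOSC10 was lower in SHEP too with MYCN 3A, at a log2 fold change of -0.40 against no MYCN (edgeR adjusted p = 0.00954). That call was lost without no MYCN replicate 1 or 3A replicate 2 (edgeR adjusted p = 0.0787 and 0.0565). Against wild type MYCN it was at -0.60 with 3A (edgeR adjusted p = 0.00025). In SHEP the MYCN gene model had 0 to 10 counts in the libraries labelled MYCN 3A, 0 to 2 in those labelled wild type MYCN and 0 to 4 in those labelled no MYCN. The counts therefore do not show MYCN in the SHEP libraries labelled with it, and every direction given for SHEP rests on the labels. All 10 adrenergic neuroblastoma markers were tested in IMR-32, where they summed to 1906 to 1977 CPM in shEXOSC10 and 3261 to 3504 CPM in Control. By edgeR, 8 were called lower and 1 higher in shEXOSC10, against 13.7% and 13.5% of all genes. The mesenchymal markers summed to 838 to 872 CPM in shEXOSC10 and 688 to 729 CPM in Control. Of the 7 tested there, 3 were called higher and 2 lower. All 10 mesenchymal markers were tested in SHEP and summed to 6457 to 6796 CPM with 3A, 7489 to 7639 CPM with wild type MYCN and 7592 to 8081 CPM without MYCN. Against no MYCN, edgeR called 6 lower and 0 higher with 3A, and 5 lower and 3 higher with wild type MYCN. The shares of all genes lower and higher were 12.8% and 12.7% with 3A, and 11.3% and 10.9% with wild type MYCN. The 8 Schwann cell markers summed to 235 to 242 CPM in shEXOSC10 and 44.0 to 49.1 CPM in Control with SOX10 at 0 in both, and to 114 to 164 CPM in SHEP. Only 5 of them were tested in IMR-32, where 3 were called higher and 1 lower in shEXOSC10. The leukocyte, epithelial and endothelial lists summed to at most 34.5 CPM in any library, with PTPRC at 0 in IMR-32 and CLDN4, KRT20 and CLDN5 at 0 in all 5 groups. Mitochondrial transcripts took 7.90 to 8.22% of counts in shEXOSC10 and 6.70 to 7.49% in Control, and 1.49 to 2.59% with 3A, 1.84 to 2.18% with wild type MYCN and 1.93 to 2.695% without MYCN. In bulk RNA, fewer cells of a type and less RNA per cell cannot be told apart. The part of these shifts in the chaperone results was not tested.

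The promoter sequences of the members differ in the motifs they hold near the start site. The RefSeq table (GRCh38.p14) held 16 windows for the 10 genes, each running from 250 bases before to 50 bases after a start site. The motifs searched on both strands were the pairs of heat shock element units GAANNTTC and TTCNNGAA, the 3-unit heat shock element in which these pairs overlap by 1 unit in either order, the E-box CACGTG and CCAAT. The 3-unit element was present for 4 of the 10 members, HSPA8, HSP90AA1, HSP90AB1 and HSPD1, against 0.608% of the 27305 genes in the table and 0.49% of its 35116 windows. CACGTG was present for HSPA9, HSPD1 and HSPE1, against 8.77% of all genes. The pair GAANNTTC was found for 7 members, HSPA1A, HSPA1B and DNAJB1 among them, against 8.21% of all genes. The pair TTCNNGAA was found for 5 members against 9.46% of all genes, and CCAAT for 5 members against 39.7%. HSPH1 had none of these motifs in its window. Only exact matches were counted, so a heat shock element with other letters would be missed. The shares of genes are not matched for the number of windows per gene. The 6 windows below hold the 3-unit element or CACGTG, which are in capitals.
HSPA8, chr11:123062087-123062386, minus strand: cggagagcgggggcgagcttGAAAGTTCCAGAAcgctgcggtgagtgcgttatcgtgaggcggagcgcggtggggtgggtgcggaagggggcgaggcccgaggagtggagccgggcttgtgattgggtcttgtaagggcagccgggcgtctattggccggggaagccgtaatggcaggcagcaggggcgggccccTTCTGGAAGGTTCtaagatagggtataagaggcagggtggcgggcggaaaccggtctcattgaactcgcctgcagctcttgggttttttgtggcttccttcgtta
HSP90AA1, chr14:102086995-102087294, minus strand: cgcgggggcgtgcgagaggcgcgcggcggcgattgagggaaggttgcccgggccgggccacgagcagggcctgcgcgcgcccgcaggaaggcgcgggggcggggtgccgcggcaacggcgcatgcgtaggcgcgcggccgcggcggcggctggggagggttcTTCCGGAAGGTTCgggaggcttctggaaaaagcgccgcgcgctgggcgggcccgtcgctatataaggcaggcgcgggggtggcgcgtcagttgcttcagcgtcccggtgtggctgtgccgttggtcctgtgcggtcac
HSP90AB1, chr6:44247693-44247992, plus strand: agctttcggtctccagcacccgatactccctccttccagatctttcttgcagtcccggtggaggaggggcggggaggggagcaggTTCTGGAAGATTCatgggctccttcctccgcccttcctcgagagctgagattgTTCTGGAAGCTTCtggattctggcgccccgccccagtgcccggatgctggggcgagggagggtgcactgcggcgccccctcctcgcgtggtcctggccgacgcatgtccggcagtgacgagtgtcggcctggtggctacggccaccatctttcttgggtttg
HSPD1, chr2:197499791-197500090, minus strand: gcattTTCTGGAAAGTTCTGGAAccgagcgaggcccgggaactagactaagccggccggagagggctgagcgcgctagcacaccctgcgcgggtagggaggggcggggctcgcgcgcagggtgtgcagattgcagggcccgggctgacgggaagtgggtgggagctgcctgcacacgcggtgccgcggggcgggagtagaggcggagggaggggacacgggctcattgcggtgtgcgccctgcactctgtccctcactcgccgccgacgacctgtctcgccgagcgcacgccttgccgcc
HSPE1, chr2:197500129-197500428, plus strand: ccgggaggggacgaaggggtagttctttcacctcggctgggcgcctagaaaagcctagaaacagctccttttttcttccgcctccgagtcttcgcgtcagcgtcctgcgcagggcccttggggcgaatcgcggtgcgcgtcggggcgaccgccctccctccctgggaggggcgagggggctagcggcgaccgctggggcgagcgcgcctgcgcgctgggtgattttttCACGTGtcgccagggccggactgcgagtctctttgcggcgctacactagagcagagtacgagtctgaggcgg
HSPA9, chr5:138575352-138575651, minus strand: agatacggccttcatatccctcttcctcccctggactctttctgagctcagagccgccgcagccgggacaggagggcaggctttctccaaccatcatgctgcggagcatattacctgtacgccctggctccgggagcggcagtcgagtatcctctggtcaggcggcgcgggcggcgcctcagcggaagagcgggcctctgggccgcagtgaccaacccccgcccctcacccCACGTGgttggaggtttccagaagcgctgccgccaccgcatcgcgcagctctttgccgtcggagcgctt
The first base of the matches lay at -230 and -55 from the start site in HSPA8, at -88 in HSP90AA1 and at -165 and -112 in HSP90AB1, and in the HSPD1 window shown at -245 and -240. HSPD1 and HSPE1 are transcribed away from each other, and the upstream of the 2 annotated HSPD1 start sites lies 105 bases from that of HSPE1. The window of that HSPD1 start site and the window of HSPE1 overlap by 204 bases, and the CACGTG found for each gene is the same site, at chr2:197500357-197500362. The HSPD1 window shown belongs to the downstream start site, and its capitals cover 2 overlapping 3-unit matches, which lie 294 bases before the HSPE1 start site and 43 bases outside its window. In HSPA9 the CACGTG began at -19. These matches describe letters in the windows, and binding was not measured at them here.

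HSP70 and its helpers form the first group. HSPA8, the constitutive cytosolic HSP70 (chromosome 11, 122928197 to 122933938, minus strand, hg19), was the most highly expressed of them. It had 683, 747 and 711 CPM in shEXOSC10, against 718, 779 and 741 CPM in Control, and these ranges overlapped. In SHEP it had 4610, 4437 and 4772 CPM with MYCN 3A, 4445, 4463 and 4555 CPM with wild type MYCN and 3994, 4041 and 3927 CPM without MYCN. The libraries of both forms lay above all libraries without MYCN and overlapped each other.

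HSPA1A and HSPA1B encode the same heat-inducible HSP70 protein from neighbouring genes on chromosome 6 (31783291 to 31785723 and 31795512 to 31798031, plus strand, hg19). HSPA1A had 4, 2 and 6 counts in shEXOSC10, against 6, 10 and 0 counts in Control. In SHEP it had 2 counts in 1 library without MYCN and 0 in the other 8. HSPA1B had 2 counts in 1 Control library and 0 in the other 14 libraries. Their neighbours were counted in every library: LSM2 had 142 to 272 counts in IMR-32 and 363 to 499 in SHEP, and NEU1 had 504 to 912 and 60 to 186. The 2 genes are near-identical copies, the RefSeq windows at their start sites matching at 277 of 299 bases, and no option for reads that map to several places is given in the SHEP header. These counts are therefore uncertain as a measure of expression, and neither gene was tested.

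HSPH1, an HSP110 that exchanges the nucleotide of HSP70 (chromosome 13, 31710762 to 31736525, minus strand), had 181.9, 209.7 and 209.5 CPM in shEXOSC10, against 180.0, 180.6 and 181.8 CPM in Control. In SHEP it had 369, 355 and 351 CPM with MYCN 3A, 356, 327 and 327 CPM with wild type MYCN and 328, 315 and 307 CPM without MYCN. The shEXOSC10 libraries lay just above Control, 1 of them by less than 1 CPM, and in SHEP only 3A was clear of the libraries without MYCN. DNAJB1, the J-domain protein that stimulates HSP70 (chromosome 19, 14625582 to 14640582, minus strand), had 53.1, 54.5 and 52.8 CPM in shEXOSC10, against 55.1, 58.6 and 59.2 CPM in Control. It had 195, 196 and 228 CPM with MYCN 3A, 196, 198 and 199 CPM with wild type MYCN and 232, 250 and 239 CPM without MYCN. The libraries without MYCN were the highest in SHEP, and 1 library with 3A came close to them. DNAJB1 shares 211 exon bases with TECR on the opposite strand. In IMR-32, TECR had 7099 counts on average and DNAJB1 1158.5. The strand setting of the IMR-32 counts is not stated, so every IMR-32 value of DNAJB1 may hold TECR reads.

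The cytosolic HSP90 pair forms the second group. HSP90AA1, the stress-responsive alpha form (chromosome 14, 102547075 to 102606036, minus strand), had 1355, 1477 and 1394 CPM in shEXOSC10, against 1854, 2002 and 1827 CPM in Control. In SHEP it had 8067, 7721 and 8255 CPM with MYCN 3A, 4861, 5422 and 5692 CPM with wild type MYCN and 6442, 6272 and 6544 CPM without MYCN. The 3 SHEP groups did not overlap: every library with 3A was above every library without MYCN, and every library with wild type MYCN was below them. HSP90AB1, the constitutive beta form (chromosome 6, 44214824 to 44221620, plus strand), had 1336, 1374 and 1401 CPM in shEXOSC10, against 1493, 1618 and 1517 CPM in Control. It had 4402, 4708 and 4822 CPM with MYCN 3A, 3961, 4210 and 4495 CPM with wild type MYCN and 3638, 3678 and 3943 CPM without MYCN. Unlike the alpha form, the beta form was lowest in the libraries without MYCN, and the 2 MYCN forms overlapped.

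The mitochondrial members were lowest without MYCN in SHEP and lower in shEXOSC10 than in Control. HSPA9, the matrix HSP70 mortalin (chromosome 5, 137890571 to 137911133, minus strand), had 269, 269 and 266 CPM in shEXOSC10, against 319.5, 329 and 335 CPM in Control. In SHEP it had 687, 656 and 641 CPM with MYCN 3A, 652, 615 and 640 CPM with wild type MYCN and 537, 507 and 487 CPM without MYCN. Both forms were clear of the libraries without MYCN and overlapped each other. HSPD1, or HSP60 (chromosome 2, 198351305 to 198381461, minus strand), had 427, 444 and 450.5 CPM in shEXOSC10, against 484, 514 and 508 CPM in Control. It had 2020, 2077 and 1944 CPM with MYCN 3A, 1635, 1726 and 1828 CPM with wild type MYCN and 1494, 1406 and 1461 CPM without MYCN. The 3 SHEP groups followed each other without overlap, 3A highest. HSPE1, or HSP10 (chromosome 2, 198364718 to 198368181, plus strand), had 86.6, 79.3 and 76.8 CPM in shEXOSC10, against 86.5, 105.8 and 102.2 CPM in Control, so that 1 library of each group was at the same level. It had 489, 429 and 438 CPM with MYCN 3A, 305, 368 and 367 CPM with wild type MYCN and 288, 290 and 302 CPM without MYCN, again in that order without overlap. HSPD1 and HSPE1 share 281 exon bases on opposite strands. The SHEP table was counted by strand, per its header. In IMR-32, HSPD1 had 9837.5 counts on average and HSPE1 1864.7. The strand setting of the IMR-32 table is not stated, so every IMR-32 value of HSPE1 may hold HSPD1 reads, and the reverse. HSPE1 also shares 192 exon bases with the read-through gene HSPE1-MOB4 on its own strand. In SHEP, per the header, reads there count for both, and for IMR-32 this setting is not stated. Changes of HSPE1 and HSPE1-MOB4 are therefore not separate evidence.

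**Figure D1:**
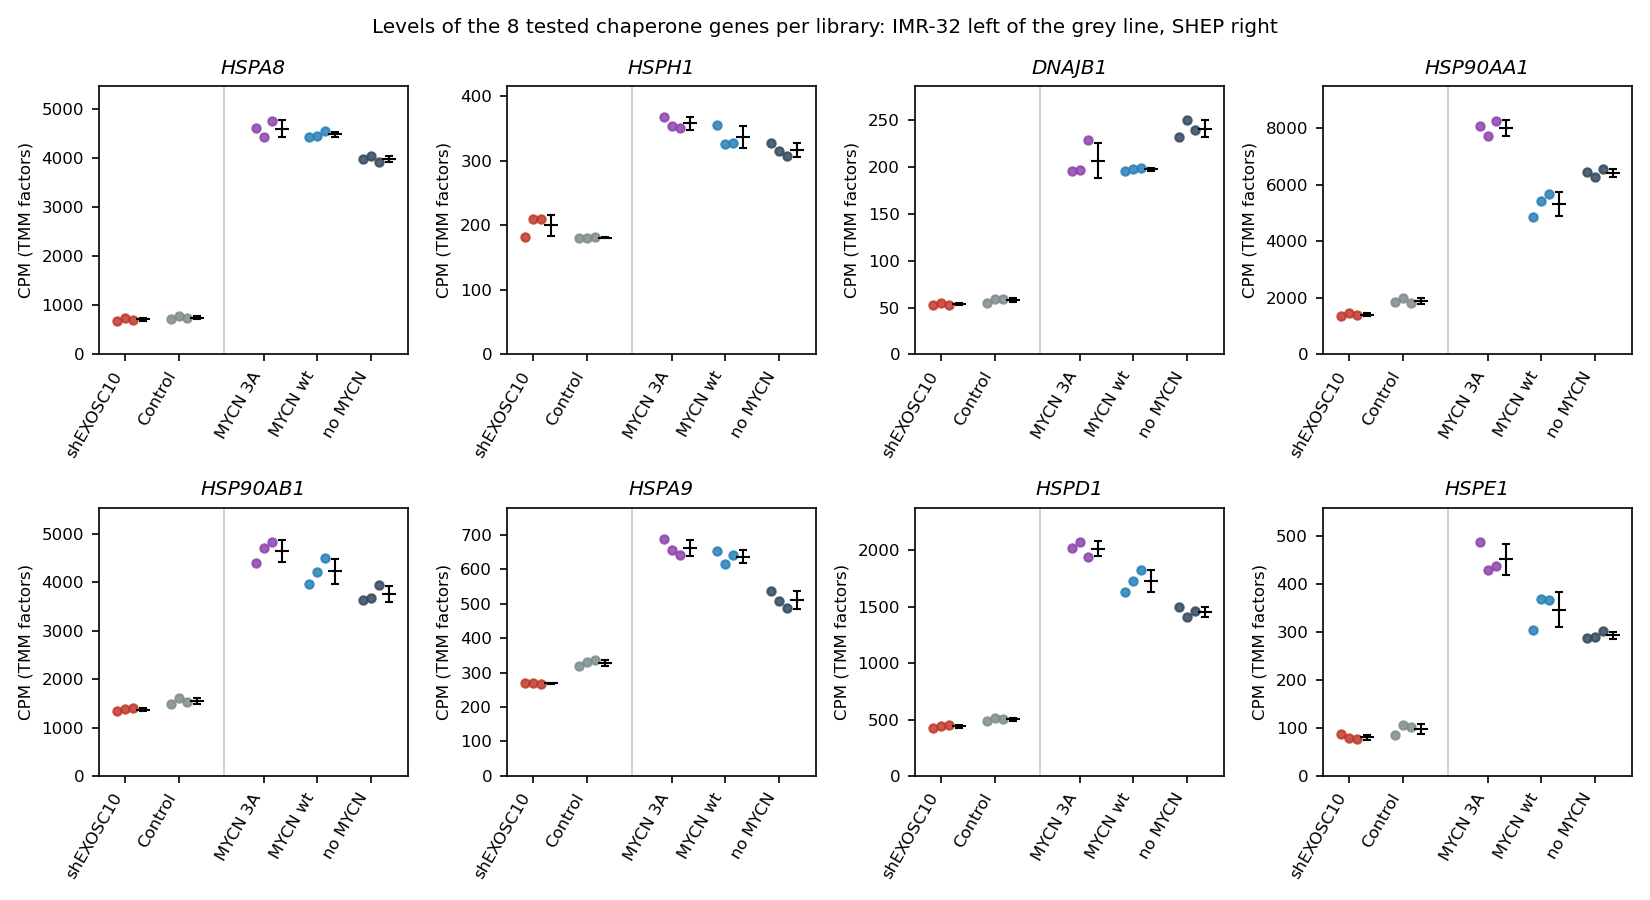
Levels of the 8 tested members in every library, in CPM with TMM factors on axes that start at 0, with IMR-32 left of the grey line and SHEP right of it. Points are libraries, and the black mark and bar beside each group are the mean and SD of 3 libraries. HSP90AA1 was highest with MYCN 3A (7721 to 8255 CPM) and lowest with wild type MYCN (4861 to 5692 CPM) within SHEP, whereas HSPD1 and HSPE1 were lowest without MYCN.

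Per kilobase of gene model, which allows levels to be compared between genes, the order of the levels was nearly shared by the lines. In shEXOSC10 the levels were 490 ± 11.7 CPM per kb for HSP90AB1, 268 ± 11.8 for HSP90AA1, 147 ± 6.66 for HSPA8, 104 ± 2.89 for HSPD1, 56.5 ± 0.358 for HSPA9, 48.9 ± 3.90 for HSPH1, 40.9 ± 2.57 for HSPE1 and 14.6 ± 0.249 for DNAJB1 (SD, n = 3). In Control the order was that of shEXOSC10 except that HSPE1, at 49.7 ± 5.20 CPM per kb, and HSPH1, at 44.1 ± 0.223, were not apart beyond their spread. With 3A and with wild type MYCN in SHEP the order was that of the libraries without MYCN, from 1661 ± 77.8 and 1510 ± 95.5 CPM per kb for HSP90AB1 to 56.2 ± 5.10 and 53.8 ± 0.428 for DNAJB1; with wild type MYCN, HSP90AA1 at 1015 ± 80.7 and HSPA8 at 925 ± 12.1 were not apart beyond their spread. Without MYCN in SHEP, HSP90AB1 had 1342 ± 59.4, HSP90AA1 1223 ± 26.2, HSPA8 822 ± 11.8, HSPD1 342 ± 10.5, HSPE1 148 ± 3.90, HSPA9 107 ± 5.33, HSPH1 77.4 ± 2.58 and DNAJB1 65.5 ± 2.50 CPM per kb. HSPE1 thus stood above HSPA9 in SHEP and below it in IMR-32. HSP90AB1 ranked 17 among all gene models without MYCN and 28 in Control, and DNAJB1 ranked 856 and 3406. The CPM of all 8 members was higher in SHEP without MYCN than in IMR-32 Control, by 1.56-fold for HSPA9 and 1.75-fold for HSPH1 up to 4.17-fold for DNAJB1 and 5.34-fold for HSPA8. The tables were scaled separately and the lines differ in much else, so this difference has no test. Together the 10 genes took 0.442 to 0.470% of the counts in shEXOSC10, against 0.511 to 0.553% in Control, and 2.01 to 2.04% with MYCN 3A, 1.67 to 1.75% with wild type MYCN and 1.74 to 1.78% without MYCN.

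EXOSC10 depletion was compared with Control in IMR-32 by edgeR's quasi-likelihood test, with p-values adjusted over all genes by the Benjamini-Hochberg method. Both HSP90 genes and all 3 mitochondrial members fell, and HSPH1 rose. The largest change among the members was that of HSP90AA1, which fell by 25.65%. Of the 8 members tested, 6 were called, against 27.1% of all genes tested: 5 were lower, against 13.7% of all genes tested, and 1 was higher, against 13.5% of all genes. The median log2 fold change was -0.18 for the members and -0.00 for all genes. HSP90AA1 fell by 0.43 on the log2 scale (SE 0.04, adjusted p = 1.22e-14) and HSP90AB1 by 0.17 (SE 0.04, adjusted p = 0.000315). HSPA9 fell by 0.29 (SE 0.05, adjusted p = 3.86e-07), HSPE1 by 0.28 (SE 0.07, adjusted p = 0.000806) and HSPD1 by 0.19 (SE 0.04, adjusted p = 0.000396). The read-through HSPE1-MOB4 fell by 0.30 (adjusted p = 0.00193). Ranges of the groups did not overlap for 6 of the 8 members, DNAJB1 included, against 38.4% of all genes. Here and in the SHEP comparisons, the all-gene shares are not matched for level, and smaller changes can be called in well counted genes. Per kilobase, the tested members ranked from 28 (HSP90AB1) to 3406 (DNAJB1) among all gene models in Control. The part of level in these shares was not tested. HSPA8 had a log2 fold change of -0.06 (95% interval -0.15 to 0.02, adjusted p = 0.269) and DNAJB1 of -0.11 (-0.26 to 0.04, adjusted p = 0.310). HSPH1 rose by 0.15 (SE 0.05, adjusted p = 0.0289), and that call was lost without Control replicate 1 or 2 or shEXOSC10 replicate 2 or 3 (adjusted p = 0.0568, 0.0694, 0.196 and 0.214).

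The MYCN 3A libraries were set against those without MYCN in SHEP. All 3 mitochondrial members and both HSP90 genes rose with 3A, HSPE1 most, at 1.54-fold, and DNAJB1 fell. The test called 6 of 8 members, against 25.5% of all genes: 5 were higher, against 12.7% of all genes tested, and 1 lower, against 12.8%. The median was 0.31 for the members and -0.04 for all genes. HSPE1 rose by 0.62 on the log2 scale (SE 0.09, adjusted p = 3.71e-05), HSPD1 by 0.47 (SE 0.08, adjusted p = 0.000247) and HSPA9 by 0.37 (SE 0.08, adjusted p = 0.00138). HSPE1-MOB4 rose by 0.44 (adjusted p = 0.00309). HSP90AA1 rose by 0.32 (SE 0.08, adjusted p = 0.00693) and HSP90AB1 by 0.31 (SE 0.08, adjusted p = 0.00874), the last not called without no MYCN replicate 1 or 2 (adjusted p = 0.0595 and 0.0532). HSPA8 had a log2 fold change of 0.21 (95% interval 0.05 to 0.37, adjusted p = 0.0510) and HSPH1 of 0.18 (0.02 to 0.34, adjusted p = 0.0955); DESeq2 called both higher (adjusted p = 0.00114 and 0.0237), as did edgeR with only the 2 groups in the fit (0.0110 and 0.0449). All 8 members had ranges that did not overlap, against 41.3% of all genes. DNAJB1 fell by 0.22 (SE 0.08, adjusted p = 0.0493), a call lost without any single library without MYCN or without 3A replicate 1 or 2 (adjusted p = 0.0866 to 0.182), with DESeq2 size factors (0.0718) and without the filter on low counts (0.0915). With library totals in place of TMM factors the median of all genes moved by -0.10, and the split over all genes was 1232 higher and 2928 lower, against 1893 and 1913 with TMM; the counts of members were then still 5 and 1.

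With wild type MYCN against no MYCN the 3 mitochondrial genes HSPA9, HSPD1 and HSPE1 rose, while HSP90AA1 and DNAJB1 fell. HSPA9 was 1.25-fold as high as without MYCN, and the chaperonin genes HSPD1 and HSPE1 were 1.19-fold and 1.18-fold as high. Of the 8 members 5 were called, against 22.2% of all genes: 3 were higher, against 10.9% of all genes tested, and 2 lower, against 11.3%, with a median of 0.17 for the members and -0.00 for all genes. HSPA9 rose by 0.32 on the log2 scale (SE 0.08, adjusted p = 0.00471), and this call held under each alternative tried. HSPD1 rose by 0.25 (SE 0.08, adjusted p = 0.0248) and HSPE1 by 0.24 (SE 0.09, adjusted p = 0.0473). Both calls were lost with library totals (adjusted p = 0.0561 and 0.126), without any single library without MYCN and without wild type replicate 2 or 3, where adjusted p was 0.0563 to 0.127 for HSPD1 and 0.0842 to 0.164 for HSPE1. That of HSPE1 was also lost without the filter on low counts (0.0510) and with only the 2 groups in the fit (0.0519). HSP90AA1 fell by 0.27 (SE 0.08, adjusted p = 0.0211) and DNAJB1 by 0.28 (SE 0.08, adjusted p = 0.0138). The call of HSP90AA1 was lost without any single library without MYCN or without wild type replicate 2 (adjusted p = 0.0609 to 0.102), and that of DNAJB1 without no MYCN replicate 2 or wild type replicate 2 (0.0818 and 0.0786). HSP90AB1, HSPA8 and HSPH1 had log2 fold changes of 0.17 (95% interval -0.00 to 0.34, adjusted p = 0.149), 0.17 (0.01 to 0.33, adjusted p = 0.121) and 0.09 (-0.07 to 0.25, adjusted p = 0.460). HSPA8 was called higher by DESeq2 (adjusted p = 0.0143), and HSP90AB1 by edgeR without wild type replicate 1 (0.0292). Ranges did not overlap for 7 members, against 37.5% of all genes, HSPH1 being the exception. With library totals, 1 member was higher and 2 lower, and the split over all genes was 1163 higher and 2147 lower, against 1634 and 1681 with TMM.

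**Figure D2:**
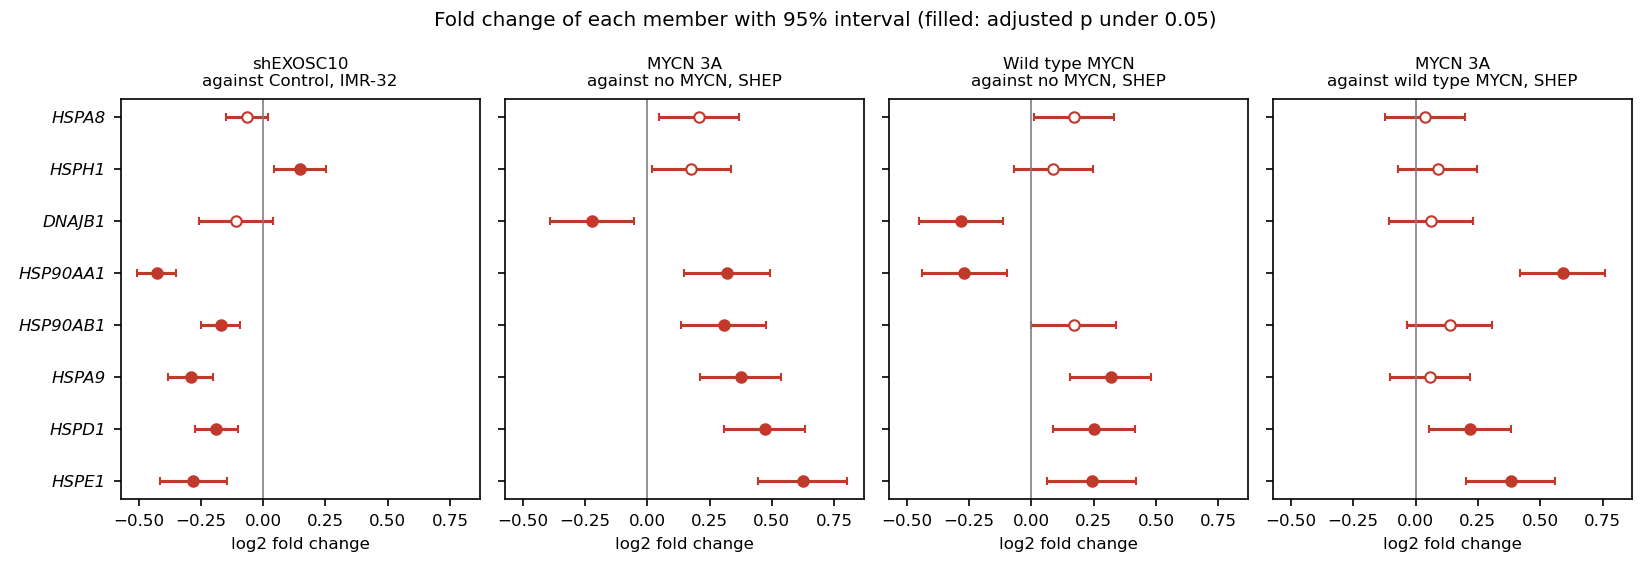
Log2 fold change of the 8 tested members with its 95% interval in the 4 comparisons, filled where the edgeR adjusted p was under 0.05. The bar of HSP90AA1 lies at 0.32 for MYCN 3A and at -0.27 for wild type MYCN against the same libraries without MYCN, and at 0.59 between the forms.

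Libraries with MYCN 3A were then set over those with wild type MYCN, a comparison that leaves out the libraries that lack MYCN. The form, its amount and the clone cannot be told apart in it. HSP90AA1 was 1.505-fold as high with 3A, the chaperonin pair HSPE1 and HSPD1 was 1.30-fold and 1.16-fold as high, and the other 5 members were not called. The test called 3 of 8 members, against 30.3% of all genes; all 3 were higher, against 14.5% of all genes. None was lower by edgeR (0 of 8, also at an unadjusted p under 0.05, and 0 by DESeq2), against 15.8% of all genes. HSP90AA1 rose by 0.59 on the log2 scale (SE 0.08, adjusted p = 1.78e-05) and HSPE1 by 0.38 (SE 0.09, adjusted p = 0.00195), and both calls held under every alternative tried. HSPD1 rose by 0.22 (SE 0.08, adjusted p = 0.0389), and that call was lost without wild type replicate 1 or 2 or 3A replicate 1 or 2 (adjusted p = 0.0733 to 0.138), without the filter on low counts (0.0709) and with only these 2 groups in the fit (0.105). The log2 fold change of HSPA9 was 0.06 (95% interval -0.10 to 0.22), that of HSPA8 0.04 (-0.12 to 0.20), that of HSPH1 0.09 (-0.07 to 0.25) and that of DNAJB1 0.06 (-0.11 to 0.23). HSP90AB1 was at 0.14 (-0.03 to 0.31, adjusted p = 0.217). Changes of the size found for HSP90AA1 between the forms lie outside the intervals of these 5 genes. HSPE1-MOB4 was at 0.22 (adjusted p = 0.0981). Ranges did not overlap for 3 members, the called ones, against 40.4% of all genes. The median was 0.11 for the members and -0.00 for all genes.

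The ratio of HSP90AA1 to HSP90AB1 per kilobase set the 2 HSP90 genes against each other within a library, where scaling factors cancel. It was 0.541, 0.572 and 0.530 in shEXOSC10, against 0.661, 0.659 and 0.641 in Control. It was 0.976, 0.874 and 0.912 with MYCN 3A, 0.654, 0.686 and 0.675 with wild type MYCN and 0.943, 0.909 and 0.884 without MYCN. The alpha form thus had a smaller part of the pair in shEXOSC10 than in Control and with wild type MYCN than in either other SHEP group, without overlap, and the ratio with 3A overlapped that without MYCN. Exact two-sided permutation tests of the log ratio gave p = 0.1 for shEXOSC10 against Control, for wild type MYCN against no MYCN and for 3A against wild type MYCN, which is the smallest value that 3 against 3 libraries allow. The same exact permutation test gave p = 0.9 for 3A against no MYCN. Over the 16 ratio tests computed, of 4 ratios in 4 comparisons, the Benjamini-Hochberg adjusted values of these exact tests were 0.267 and 0.9. The ratio of HSPA8 to DNAJB1 per kilobase was 17.0 ± 1.04 with 3A, 17.2 ± 0.115 with wild type MYCN and 12.6 ± 0.423 without MYCN (SD, n = 3 each), both forms clear of the libraries without MYCN (exact permutation p = 0.1 each, adjusted 0.267). A ratio shows that the 2 genes changed unequally, and not which of them moved.

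**Figure D3:**
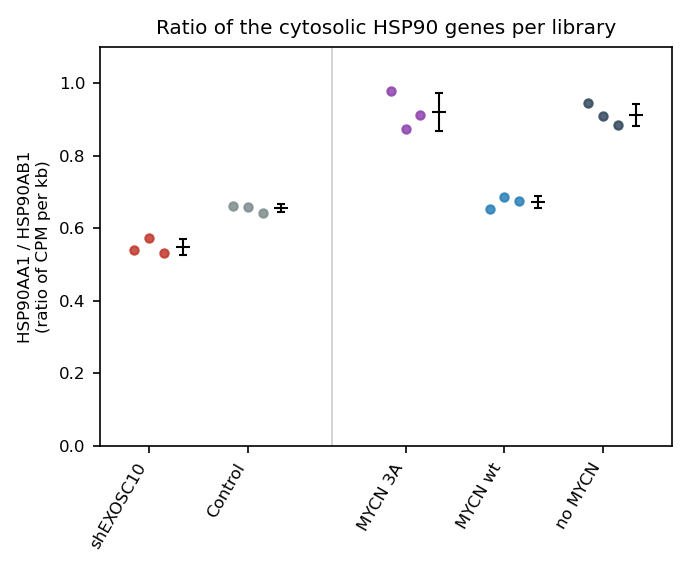
Ratio of HSP90AA1 to HSP90AB1, each in CPM per kb of gene model, per library on an axis from 0. Points are libraries, and the black mark and bar are the mean and SD of 3 libraries. Wild type MYCN (0.654 to 0.686) lies apart from MYCN 3A (0.874 to 0.976) and from no MYCN (0.884 to 0.943).

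Other chaperones were described by lists drawn up with earlier results of these data known, by counts and medians, without a test of the list; adjusted p-values in parentheses are from edgeR over all genes. List counts are over the genes tested and, as for the members, stand against all genes tested. The lists share genes, so their counts are not separate evidence. STIP1, FKBP4 and AHSA1 are both HSP90 cochaperones and HSF1-induced genes, and GRPEL2 is in the mitochondrial and the exchange factor list. The all-gene shares were 13.5% higher and 13.7% lower in shEXOSC10, 12.7% and 12.8% with MYCN 3A, 10.9% and 11.3% with wild type MYCN, and 14.5% and 15.8% for 3A against wild type MYCN. In shEXOSC10 against Control, 7 of 17 mitochondrial chaperones and proteases fell and 1 rose (0 without Control replicate 3 or shEXOSC10 replicate 1 or 2), with a median log2 fold change of -0.20. The matrix protease LONP1 fell by 0.40 on the log2 scale (adjusted p = 3.07e-10), TIMM44, which docks HSPA9 to the import channel, by 0.38 (2.83e-06) and the HSPA9 exchange factor GRPEL2 by 0.47 (2.76e-05). Of the 6 prefoldin subunits, which hand actin and tubulin to the cytosolic chaperonin, 3 fell (2 by DESeq2) and 0 rose by edgeR (0 also at an unadjusted p under 0.05 and by DESeq2), PFDN2 by 0.62 (6.93e-12) and PFDN4 by 0.60 (5.80e-05). Of 21 HSP90 cochaperones, 6 fell and 3 rose (1 without shEXOSC10 replicate 2). STIP1, the HSP70 to HSP90 adaptor, fell by 0.29 (3.85e-06), PTGES3 or p23 by 0.27 (1.53e-05) and the immunophilin FKBP4 by 0.24 (9.97e-05).

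Of the 20 endoplasmic reticulum genes, 8 rose and 1 fell in shEXOSC10; the 1 became 2 without Control replicate 3 and 0 without any other single library. CALR, the lectin chaperone calreticulin, rose by 0.21 on the log2 scale (adjusted p = 9.83e-06), DNAJB9 by 0.48 (0.000116), CRELD2 by 0.34 (0.000117) and HSPA5, the HSP70 of that compartment, by 0.17 (0.000299). HSPA6, a heat-inducible HSP70, rose at a very low level, with 0.935 ± 0.262 CPM in shEXOSC10 and 0.255 ± 0.273 CPM in Control (SD, n = 3 each; log2 fold change 1.83, edgeR adjusted p = 0.0289). That call was lost without Control replicate 1 or 2 or shEXOSC10 replicate 2 or 3 (adjusted p = 0.0865 to 0.157), without the filter on low counts (0.0603) and by DESeq2 (0.0749). Of 19 HSF1-induced genes outside the members, 5 fell and 2 rose, the 2 becoming 0 without shEXOSC10 replicate 2 and 1 by DESeq2, without the filter on low counts, or without Control replicate 1 or 2 or shEXOSC10 replicate 3. Among those that fell were STIP1 and FKBP4, already given as HSP90 cochaperones, and the ubiquitin gene UBB, by 0.22 (9.45e-05). HSF1 itself had 48.7 ± 2.86 CPM in shEXOSC10 and 50.6 ± 4.15 CPM in Control (SD, n = 3 each; log2 fold change -0.06, 95% interval -0.22 to 0.10).

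With MYCN 3A against no MYCN, 10 of the 17 mitochondrial genes rose and 0 fell by edgeR (0 also at an unadjusted p under 0.05 and by DESeq2), with a median of 0.40 against -0.04 for all genes. TRAP1, the mitochondrial HSP90, rose by 0.55 on the log2 scale (adjusted p = 6.39e-05), TIMM44 by 0.60 (8.66e-05) and the import motor subunit PAM16 by 0.82 (9.78e-05). With wild type MYCN against no MYCN, 9 of the 17 rose and 1 fell, with a median of 0.28. The 9 became 4 with library totals or without no MYCN replicate 1, and 5 without no MYCN replicate 3 or wild type replicate 2 or 3. TRAP1 rose by 0.51 (5.10e-05) and TIMM44 by 0.41 (0.00198), and DNAJC15, a J-domain protein of the inner membrane, fell by 1.05 (2.50e-05).

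DNAJC15 had 29.9 ± 0.326 CPM with MYCN 3A, 10.3 ± 2.22 CPM with wild type MYCN and 21.4 ± 1.91 CPM without MYCN (SD, n = 3 each), so that wild type MYCN was the lowest of the groups and 3A the highest. Between the forms it was 1.53 higher on the log2 scale with 3A (adjusted p = 1.91e-07). The other 2 of the 3 mitochondrial genes that were higher with 3A than with wild type MYCN were PAM16, by 0.54 (0.00219), and HSCB, a cochaperone of iron-sulfur cluster assembly, by 0.57 (0.004); the 3 became 5 without wild type replicate 3. None of the 17 was lower between the forms by edgeR or DESeq2 (0), and 1 was lower at an unadjusted p under 0.05.

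Prefoldin had 4 of 6 subunits higher with MYCN 3A against no MYCN and 4 of 6 higher with 3A against wild type MYCN. With wild type MYCN against no MYCN, 0 of 6 were called by edgeR or DESeq2 or at an unadjusted p under 0.05, and 1 was higher without wild type replicate 1. PFDN4 rose by 0.58 on the log2 scale (adjusted p = 0.0002) and PFDN2 by 0.49 (0.000482) with 3A against no MYCN. Between the forms they were 0.45 (0.00116) and 0.33 (0.00768) higher with 3A. The count of 4 between the forms became 2 without 3A replicate 3 or wild type replicate 1 or 2.

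Of the 21 HSP90 cochaperones, 8 rose with MYCN 3A against no MYCN and 0 fell by edgeR (0 also at an unadjusted p under 0.05 and by DESeq2). The 8 became 4 without no MYCN replicate 1, and 5 without no MYCN replicate 2, without 3A replicate 3 or with library totals. With wild type MYCN 3 rose and 1 fell; the 3 became 8 by DESeq2 and 9 without wild type replicate 1. The 1 became 4 with library totals, 3 without wild type replicate 3 and 0 without the filter on low counts or without any other single library of these groups. FKBP4 rose by 0.51 on the log2 scale with 3A (adjusted p = 0.000119) and by 0.33 with wild type MYCN (0.00441), and NUDC by 0.44 (0.00137) and 0.51 (0.000291). Between the forms 5 were higher with 3A (3 without 3A replicate 3) and 3 lower (1 without 3A replicate 2 or wild type replicate 2). AHSA1, which activates the HSP90 ATPase, was 0.41 higher with 3A than with wild type MYCN (0.000608), the cochaperone SUGT1 0.67 higher (3.53e-06) and the ubiquitin ligase STUB1 0.47 higher (0.000645).

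HSPB1, the small heat shock protein HSP27, had 622 ± 63.6 CPM with MYCN 3A, 469 ± 73.1 CPM with wild type MYCN and 657 ± 26.0 CPM without MYCN (SD, n = 3 each). Like HSP90AA1 it fell with wild type MYCN against no MYCN, by 0.49 on the log2 scale (adjusted p = 0.000998), and was 0.41 higher with 3A than with wild type MYCN (0.00355). It is among the 19 HSF1-induced genes outside the members, of which 6 rose and 2 fell with 3A, 4 rose and 2 fell with wild type MYCN, and 5 were higher and 4 lower between the forms. The 6 became 2 with library totals or without no MYCN replicate 1, and 3 without no MYCN replicate 2 or 3A replicate 2. The 2 that fell with 3A became 1 without any single library without MYCN or without 3A replicate 2, and the 2 that fell with wild type MYCN became 1 without no MYCN replicate 1 or wild type replicate 2. The 4 that rose with wild type MYCN became 2 without no MYCN replicate 1, 8 without wild type replicate 1 and 7 by DESeq2. The 5 higher between the forms became 8 by DESeq2, and the 4 lower between the forms became 2 without 3A replicate 2. HSF1 had 41.0 ± 6.23 CPM with 3A, 46.9 ± 2.06 CPM with wild type MYCN and 42.8 ± 1.38 CPM without MYCN (SD, n = 3 each), and was called in none of the 3 SHEP comparisons (edgeR adjusted p = 0.207 to 0.739).

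In the endoplasmic reticulum list, 3 of 20 rose and 5 fell with MYCN 3A against no MYCN, the 5 becoming 2 without no MYCN replicate 1 and 3 without no MYCN replicate 2 or 3A replicate 2 or 3. With wild type MYCN 3 fell (1 without wild type replicate 2 or no MYCN replicate 2 or 3) and 0 rose by edgeR (2 at an unadjusted p under 0.05 and 2 by DESeq2). HYOU1, the HSP110 of that compartment, fell by 0.63 on the log2 scale with 3A (adjusted p = 0.00102) and was 0.66 lower with 3A than with wild type MYCN (0.000472), whereas SDF2L1 rose by 0.73 with 3A (0.000392) and was 1.06 higher than with wild type MYCN (3.72e-06). BAG1, an HSP70 exchange factor, rose with both forms, by 0.60 with 3A (0.00054) and by 0.49 with wild type MYCN (0.00245).

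J-domain proteins outside the members moved both ways, with 4 of the 35 tested higher and 6 lower in shEXOSC10, 7 higher and 6 lower with MYCN 3A, 5 and 5 with wild type MYCN, and 6 and 6 between the forms. Most of these counts moved by more than 1.5 times when single libraries were left out, the 7 higher with 3A becoming 2 without any single library without MYCN and 4 without 3A replicate 1 or 3. With library totals, 1 was higher and 9 were lower with 3A, and 2 were higher with wild type MYCN. SEC63, which works at the translocon of the endoplasmic reticulum, fell by 0.35 on the log2 scale in shEXOSC10 (adjusted p = 5.25e-10), the ribosome-associated DNAJC2 rose by 0.61 with 3A (0.000102) and DNAJB2 fell by 0.76 with wild type MYCN (4.03e-05). Of 12 HSP70 exchange factors, 3 fell in shEXOSC10 (5 without Control replicate 3) and 0 rose by edgeR (2 at an unadjusted p under 0.05 and 0 by DESeq2), 3 rose and 1 fell with 3A, and 5 rose and 1 fell with wild type MYCN. The 1 that fell with wild type MYCN became 0 without wild type replicate 2 and in the absence of either replicate 2 or 3 of no MYCN. The 5 became 2 without no MYCN replicate 1 or wild type replicate 3, and 3 without no MYCN replicate 3, without wild type replicate 2 or with library totals.

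**Figure D4:**
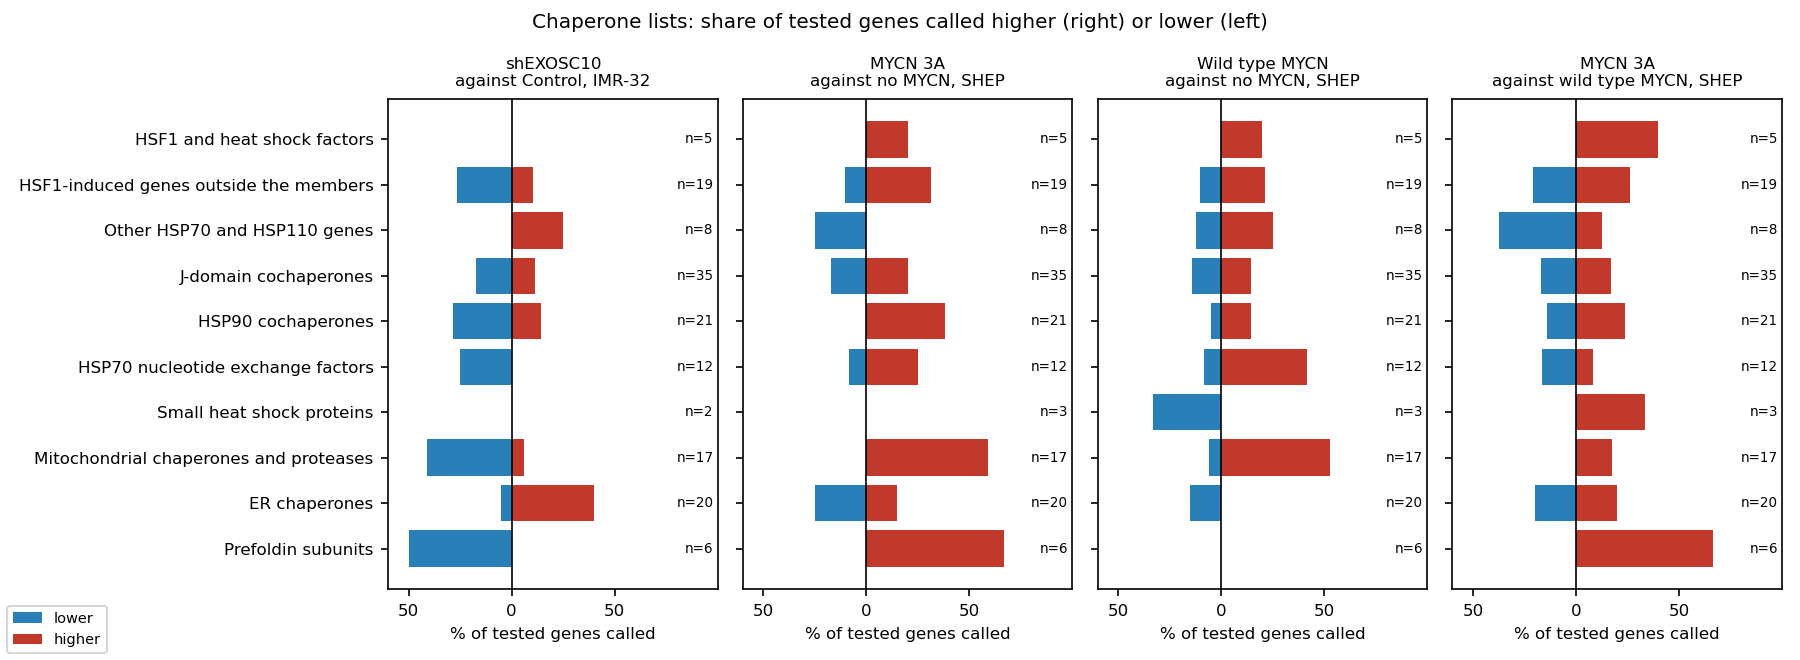
Share of the tested genes of each chaperone list that was called higher (red, right of 0) or lower (blue, left of 0) by edgeR at an adjusted p under 0.05, with the number of genes tested. In the mitochondrial list 7 of 17 genes fell in shEXOSC10, 10 rose with MYCN 3A and 9 rose with wild type MYCN. Prefoldin bars are absent for wild type MYCN, where 0 of 6 genes were called.

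Across the 15 libraries, with log2 CPM centred within each cell line, HSPD1 varied most closely with HSP90AB1 (Pearson r = 0.92) and HSPE1 (r = 0.92), and HSPA9 with HSPD1 (r = 0.88). HSP90AA1 varied most closely with HSPE1 (r = 0.69), then with HSP90AB1 (r = 0.63) and HSPD1 (r = 0.6). Its r was 0.42 with HSPA9, 0.36 with HSPA8, 0.3 with DNAJB1 and -0.04 with HSPH1. DNAJB1 had negative r with HSPA8, HSPA9, HSPH1, HSP90AB1, HSPD1 and HSPE1, of -0.29 to -0.58. These are descriptions over libraries that share their groups, with no test. Among 5739 other genes with mean log2 CPM of at least 5, the genes most like HSPD1 were CYCS, or cytochrome c (r = 0.98), and NPM1 (r = 0.96), and those most like HSPE1 were CACYBP and SNRPA1 (each r = 0.96). The proteasome genes PSMD1 and PSMB5 were most like HSP90AA1 (r = 0.96 and 0.95), and the mitochondrial genes STOML2 and NDUFAB1 most like HSP90AB1 (each r = 0.97). HSPA8 was most like GTF3A and RSL1D1 (r = 0.94 and 0.93), HSPA9 like SINHCAF and RCN1 (0.94 and 0.93), HSPH1 like ALDH1B1 and DNAJB11 (0.88 and 0.81) and DNAJB1 like GNAS and NRBP1 (0.95 and 0.93).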

How the data were processed

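The series held 89 samples; 15 RNA-seq libraries of polyadenylated RNA were used, and the other 74 samples were not analysed here. The deposited values are raw counts per gene. Per the submitters' processing notes, reads were mapped with STAR 2.7.10a to hg19 and counted with featureCounts 2.0.3. Per the file header, the SHEP table was counted by strand (setting 2) on Ensembl release 87, with a minimum overlap of 10 bases and with reads over several genes counted for each; the settings of the IMR-32 table are not given in the sources used here, and its columns were matched to libraries by treatment (doxycycline or ethanol) and replicate number in their names. The other columns of the authors' tables, such as gene length in bases, were deposited beside the counts; 0 columns were unused per-sample columns. Of counts from 1 to 10, 65.5 to 77.1% were even, so read ends were counted singly and are not independent molecules.

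Genes were filtered with filterByExpr, scaled with TMM and tested with edgeR 4.0.16 (robust quasi-likelihood, two-sided, all SHEP groups in 1 fit, Benjamini-Hochberg, adjusted p under 0.05) in R 4.3.3, with limma 3.58.1 and DESeq2 1.42.0. Variation between the libraries of a group (edgeR's common coefficient), which may be technical, came to 0.077 for IMR-32 and 0.108 for SHEP. Replicates of a group differed by more than counting noise (chi-square per degree of freedom 3.96 to 17.94). SE is the fold change over the root of F, intervals are 95%, and log2 CPM used a prior count of 2. On simulated data with 1.5-fold changes, 89.6% were called for shEXOSC10 against Control. The share was 82.1% for 3A and 79.1% for wild type MYCN against no MYCN, and 70.1% for 3A against wild type MYCN. For 1.2-fold changes the shares were 47.8, 4.5, 3 and 10.4%. Each size of change was given to only 66 or 67 genes, far fewer than were called in the data. The adjusted threshold was therefore stricter in the simulation than in the data.

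The members and lists were chosen with earlier results of these data known. Named were all 10 members, HSF1, the 3 called genes with the smallest p of each list and comparison, and the 2 genes most like each member; not all are printed. Alternatives were other scalings and tests, no filter, each library left out, a replicate block, pseudogene counts added and, in SHEP, only the 2 groups compared. Promoters are RefSeq windows of GRCh38.p14, while counts use hg19.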

Additional observations from a re-analysis of the deposited data

How the results depend on the processing

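Limits: groups had 3 libraries, and a member that missed the threshold in SHEP was not shown to stay level. Simulated 1.2-fold changes were called for at most 10.4% of genes there. Few genes were changed in the simulation, so this share does not give the power for the members. With wild type MYCN, HSPE1 was called at 1.18-fold and HSPD1 at 1.19-fold. The number of members called lower with MYCN 3A was 0 with DESeq2 size factors and 0 without the filter on low counts, against 1, and without 1 library it ranged from 0 to 1. The number higher with wild type MYCN was 1 with library totals, against 3, and 1 to 4 without 1 library; the number lower was 0 to 2, against 2. The number higher in shEXOSC10 was 0 to 1 without 1 library, against 1. All genes called with 3A against no MYCN ranged from 2166 to 3616 without 1 library, against 3806, lowest without no MYCN replicate 1 and next without replicate 2 (2508). Signs turned for DNAJB1 between the forms without 3A replicate 3 (-0.015 on the log2 scale, 0.10 without 3A replicate 1) and for HSF1 with 3A without 3A replicate 1 (0.048, and -0.17 without 3A replicate 3), neither called. The cause of these moves was not tested, beyond the smaller number of libraries. Adding pseudogene counts, at most 4.61% of a member's, cost 1 call among the members, that of HSPE1 with wild type MYCN (adjusted p = 0.0548), and HSPA1A with HSPA1B summed still failed the filter on low counts. The mitochondrial list had 4 to 10 genes higher with wild type MYCN over all alternatives and 8 to 11 with 3A, prefoldin 3 to 4 with 3A and 2 to 4 between the forms, and 5 to 8 mitochondrial genes fell in shEXOSC10.

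The labels describe no pairing of replicate numbers. Deviations of libraries with the same number correlated at r = 0.03 to 0.04 in IMR-32, where each library correlated best with its own number, and at -0.03 to 0.14 in SHEP. With a replicate block, 1 member was higher and 5 lower in shEXOSC10, 7 and 1 with 3A, 5 and 2 with wild type MYCN, and 4 and 0 between the forms; all genes called numbered 5251, 4794, 4184 and 5414, against 4639, 3806, 3315 and 4527.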
